A study of Mus musculus with 24 samples.

Results

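Whole lungs of the inbred progenitor strains C3H/HeJ (C3) and C57BL/6J (B6) were compared on Affymetrix Mouse 430A arrays, which read each transcript with one or more probe sets of short oligonucleotides. The comparison used the 2 arrays titled C3-1 and C3-2 and the 2 titled B6-1 and B6-2, which are 4 of the 24 arrays of the series. All mice were untreated males aged 8 weeks from the Jackson Laboratory, and total RNA was taken from 1 lung sample for each array. The other 20 arrays, 2 for the hybrid BXHF1 (F1) and 2 for each of 9 recombinant inbred (RI) BXH strains, lent their spread between replicates to the test. Of the 22690 probe sets on the array, 20380 carried one gene symbol, and these are the members described here. Of them, 12499 lay among the brightest 60 percent of all probe sets and were tested, while 7881 lay below that level and were not. Each gene was counted once, by its brightest tested probe set over all arrays, which gave 8280 genes tested and 4113 below the filter.

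Inbred strains are homozygous at nearly every locus, so all animals of a strain share one genotype. C57BL/6J carries the b haplotype of the H2 major histocompatibility complex and a deletion in Nnt, and C3H/HeJ carries the k haplotype and a missense mutation in the endotoxin receptor gene Tlr4. Lung is a mixture of alveolar and airway epithelium, capillary endothelium, fibroblasts and resident macrophages, and in bulk RNA fewer cells of a type and less RNA per cell cannot be told apart. Whether the 2 arrays of each strain stand for separate mice is not stated in the labels, and p-values therefore cover the spread of these samples alone, possibly a technical one.

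The lung identity of the 4 arrays was clear from their markers. The 14 alveolar type 2 genes tested, which include the surfactant proteins, had a mean log2(signal + 16) of 12.38 and 12.48 in B6 and 12.34 and 12.53 in C3, and the 10 alveolar type 1 genes 11.65 and 11.78 against 11.85 and 11.81. Arrays of both strains stood apart in some lists of tissue that is not alveolar. C3 replicate 1 was low in skeletal muscle and squamous genes, and B6 replicate 1 was high in squamous genes. C3 replicate 2 was high in mucous and mesothelial genes and low in adipose genes. The 18 skeletal muscle genes of C3 replicate 1 averaged 7.30 on this log2 scale, against 10.05 on C3 replicate 2 and 10.15 and 10.10 in B6, and its 5 squamous epithelial genes 6.82 against 8.68, 10.64 and 9.53. The summed signal of the muscle list was 5394 on C3 replicate 1 and 25845 to 28710 on the other 3 arrays. Among RI strains the muscle mean, each of 2 arrays, ran from 7.42 to 11.07. C3 replicate 1, a single array, lay just below that range and the other 3 arrays within it. The squamous mean of C3 replicate 1 was also just below the lowest RI strain mean, 6.88. That of B6 replicate 1, 10.64, lay further outside, above the highest RI strain mean of 9.93. On C3 replicate 2 the 10 mucous and goblet cell genes averaged 11.34, against 8.92 to 10.15 on the other 3 arrays and at most 10.98 in an RI strain, with a summed signal of 32997 against 11612 to 16152. Its 6 mesothelial genes averaged 10.34, against 9.75 to 9.86 and at most 10.08. Its 9 adipose genes averaged 9.03, below the lowest RI strain mean of 9.23. The 8 platelet genes averaged 8.49 and 8.55 on the C3 arrays, below the lowest RI strain mean of 8.81. Over tested probe sets the B6 pair correlated at 0.966 and the C3 pair at 0.948, and arrays of different progenitors at 0.923 to 0.944; these correlations are across probe sets, which are not independent replicates.

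**Figure D1:**
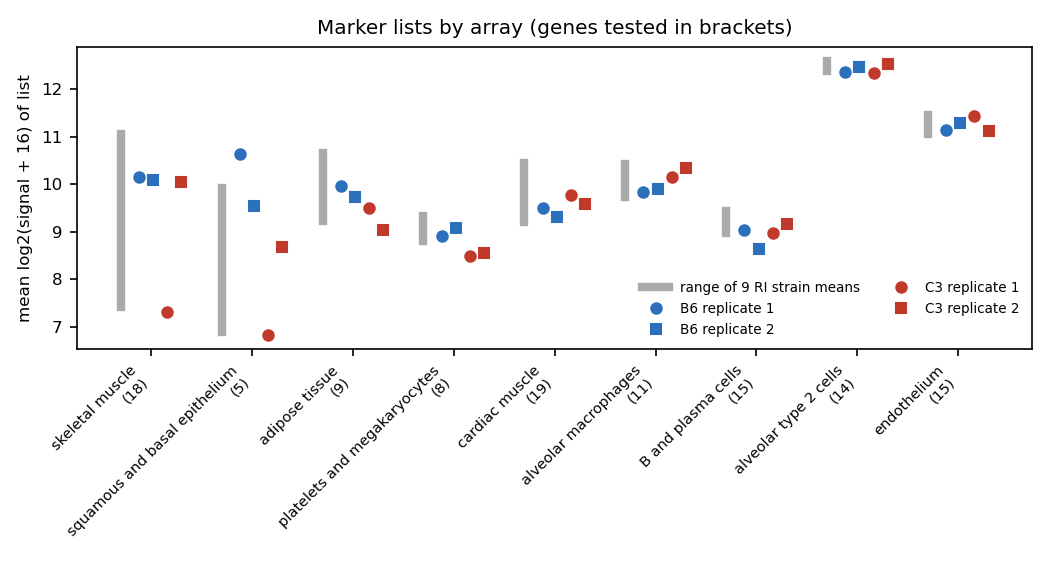
Mean log2(signal + 16) of 9 marker lists on each B6 and C3 array (symbols), with the range of the 9 RI strain means (grey bars); tested genes are in brackets. C3 replicate 1 lies near 7.30 for skeletal muscle and 6.82 for squamous epithelium, while the alveolar type 2 means of the 4 arrays lie between 12.34 and 12.53.

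At an adjusted p below 0.05 (limma, Benjamini-Hochberg over all probe sets tested), 96 probe sets were higher and 113 lower in C3, which is 0.768% and 0.904% of those tested and 1.67% together. By gene, 61 were higher and 74 lower, 0.737% and 0.894% of the 8280 tested and 1.63% together. The differences were wide: 75 of the 135 called genes differed by a log2 value of 1 or more, and the smallest called difference was 0.46. With 2 arrays a strain, the signals of C3 and B6 did not overlap in 36.7% of all genes tested, so a gap between the arrays alone says little. At an unadjusted p below 0.05 there were 752 genes, and the median difference over all genes was 0.00.

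Many calls were lost when 1 array was left out, which leaves a single array in that strain and less precision. A lost call alone therefore does not show that 1 array set the difference. Over the 4 such fits the log2 difference of Wdfy1 ran from 1.34 to 1.41, and that of Jchain from 1.27 to 3.70. Of the 135 genes, 43 (23 higher and 20 lower) passed whichever one of the 4 arrays was left out and 33 passed in none of these 4 fits, while 0 changed sign. Without C3 replicate 1, the array low in muscle genes, 45 genes were higher and 59 lower, and 76 of the 135 still passed; with the muscle list mean as a covariate 98 did. Without B6 replicate 1, B6 replicate 2 or C3 replicate 2, 67, 65 and 59 of the 135 passed. A fit on only the 4 progenitor arrays, with its own spread, passed 48 of the 135; of the 43, 8 did not pass there and are named for that reason, Akr1e1, Exosc9, Slc25a51, Adgrl4, Krt19, Gprc5b, Bhlhe40 and Clba1. Unless an array is named below, a gene given as higher or lower passed in all 4 of these fits.

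**Figure D2:**
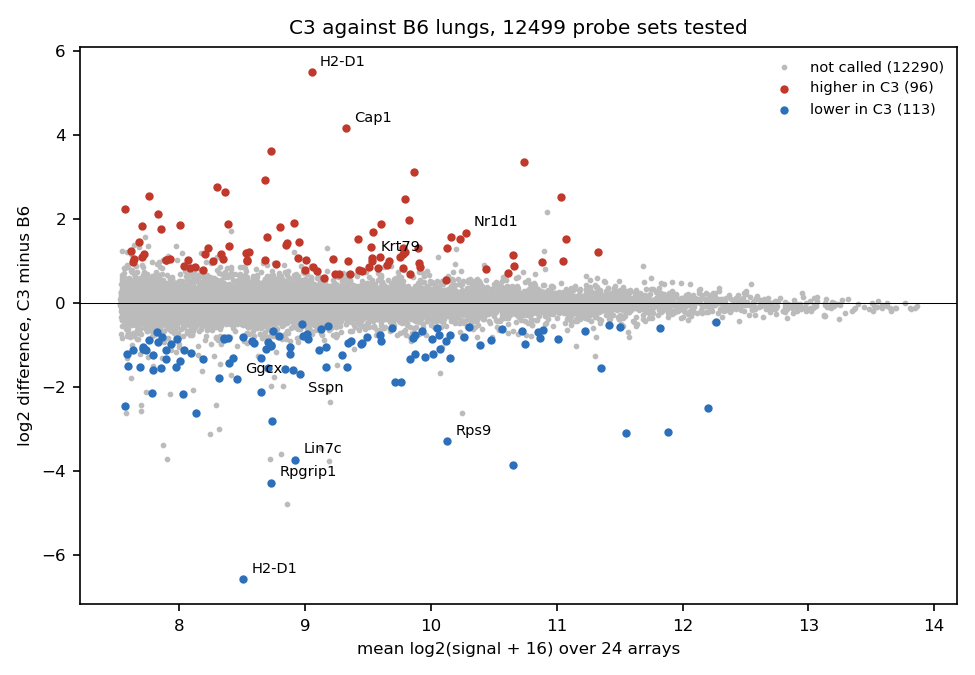
Log2 difference of C3 minus B6 against the mean log2(signal + 16) over 24 arrays for the 12499 probe sets tested, with the 96 called higher in red and the 113 called lower in blue. Called probe sets lie on both sides of 0 at nearly all signal levels, and probe sets of H2-D1 lie at both extremes.

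The called genes were spread thinly over functions. Of the 73 lists of genes compared, the circadian clock held the most called genes of one direction, 4 of 19, followed by the ribonuclease A neighbourhood with 3 of 13 lower and actin turnover with 3 of 42 higher. Class I antigen presentation had 3 of 17 lower, or 2 without H2-D1, whose probe sets passed in both directions. In all, 52 of the 135 called genes were in one or more of the lists and 83 in none. No list was tested as a set, and the counts are read only against the 0.737% and 0.894% of all genes called in each direction.

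**Figure D3:**
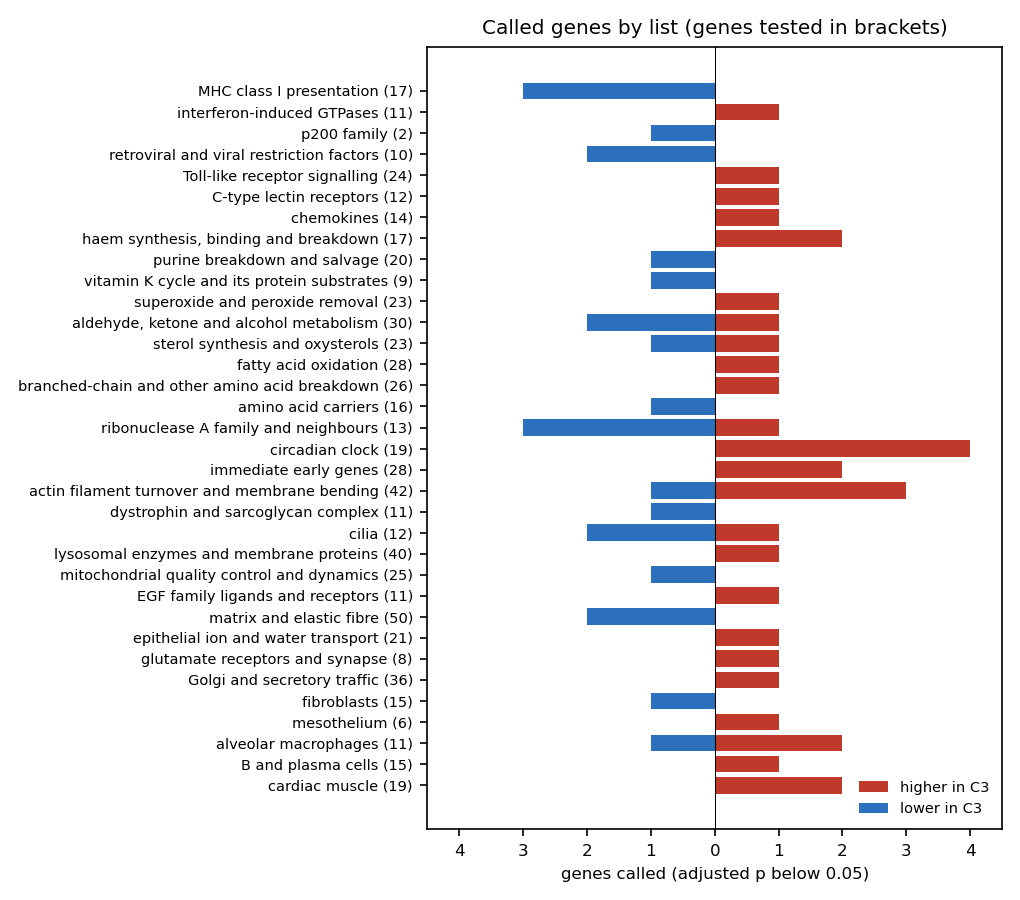
Number of genes called higher (red, to the right) or lower (blue, to the left) in C3 in each list with 1 or more called genes; the number of genes tested is in brackets. The clock list reaches 4 genes higher, and class I presentation and the ribonuclease A neighbourhood 3 genes lower; the class I count is 2 without H2-D1, whose probe sets passed in both directions.

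Class I molecules carry peptides from inside the cell to its surface, where CD8 T cells and natural killer cells read them, with beta 2 microglobulin (B2m) as the common light chain. The class I genes of the classical type were lower in C3 on their brightest probe sets. H2-D1 had signals of 8824 and 8797 in B6 and 1086 and 985 in C3, a log2 difference of -3.07 (SE 0.21, adjusted p = 2.15e-08). H2-K1 had 8594 and 8905 against 1565 and 1486 (-2.51, SE 0.17, adjusted p = 1.42e-08). The B6 arrays of both genes lay several-fold above the C3 arrays with no overlap. H2-M3, which presents formylated peptides, had 1077 and 913 against 452 and 601 (-0.91, SE 0.17, adjusted p = 0.00487), and lost its call without B6 replicate 1 or C3 replicate 1 (highest adjusted p = 0.0974). These 3 (2 without H2-D1, whose other probe sets follow) were the only members of the 17 tested that passed, and the list median was 0.00. B2m had 10363 and 10233 in B6 and 8452 and 7334 in C3 (-0.39, adjusted p = 0.417).

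The other probe sets of H2-D1 did not all point the same way. On one of them the signals were 2302 and 2779 in B6 and 10.8 and 10.5 in C3 (log2 difference -6.58, adjusted p = 4.71e-12), the lowest difference of all probe sets tested. On another they were 65.4 and 57.9 in B6 and 4205 and 2915 in C3 (5.50, adjusted p = 1.24e-08), the highest of all. Each of these probe sets was bright in one progenitor and near the bottom of the scale in the other. In the RI strains they kept this reciprocity: BXH2, BXH6, BXH7 and BXH14 lay nearer C3 on both, and 9 of 9 strains fell on the same side by both. The F1 hybrid had 1245 on the former and 1980 on the latter. A further pair were lower in C3 (-3.09 and -1.53). Of the other 3 probe sets of H2-K1, 2 were lower (-3.86 and -1.53) and 1 did not pass (-1.03, adjusted p = 0.123). Probe sets of the _x_at type can bind related transcripts, and class I genes are near-identical to each other in long stretches, so a level here belongs to the probe set rather than to the gene, and the direction of H2-D1 cannot be told from these arrays.

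The promoters of these genes are shown because both carry the same pair of motifs in the same order. They come from RefSeq in the assembly GRCm38.p6, which is the C57BL/6J sequence, and run from 250 bases before to 50 after the annotated start; capitals mark matches to the NF-kappaB consensus and to the letters AGTTTC, which form part of interferon-stimulated elements. H2-D1 lies on the plus strand at chr17:35262844-35263143 and H2-K1 on the minus strand at chr17:34000284-34000583 (one of its 2 annotated starts).
H2-D1: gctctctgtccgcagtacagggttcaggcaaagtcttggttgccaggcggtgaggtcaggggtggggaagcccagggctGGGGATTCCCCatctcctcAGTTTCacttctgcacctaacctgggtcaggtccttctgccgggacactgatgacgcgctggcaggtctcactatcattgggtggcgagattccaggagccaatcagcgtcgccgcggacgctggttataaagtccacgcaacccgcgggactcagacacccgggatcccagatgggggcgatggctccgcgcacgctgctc
H2-K1: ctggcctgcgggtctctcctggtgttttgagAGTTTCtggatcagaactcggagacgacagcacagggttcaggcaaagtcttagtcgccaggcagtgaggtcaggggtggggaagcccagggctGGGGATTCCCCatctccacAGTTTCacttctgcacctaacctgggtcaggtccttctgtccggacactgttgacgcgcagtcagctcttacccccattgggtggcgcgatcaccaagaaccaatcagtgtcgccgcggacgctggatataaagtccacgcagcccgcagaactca
The NF-kappaB match begins 171 bases before the start of H2-D1 and 125 before that of H2-K1, followed by AGTTTC at 152 and 106 before; H2-K1 has a further AGTTTC at 219. Searched on both strands, the NF-kappaB consensus is in 8.46% and AGTTTC in 15.8% of the 32851 mouse promoters of this length in the table. These matches describe the letters only, and the C3 sequence was not used here.

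Among other genes of innate and antiviral defence the called genes went both ways. Gbp2b, a guanylate-binding GTPase induced by interferon gamma, had 131.5 and 89.9 in B6 and 748.9 and 684.0 in C3 (2.55, SE 0.32, adjusted p = 8.95e-05). It was 1 of 11 interferon-induced GTPases called, in a list with a median of -0.29: Igtp had 1050 and 826 against 782 and 638 (-0.39, adjusted p = 0.892) and Iigp1 stood at -0.29 (adjusted p = 0.891). Ifi209, of the p200 family of nucleic acid sensors, had 521.8 and 438.4 against 114.1 and 139.0 (-1.80, SE 0.25, adjusted p = 0.000363). Trim34a, of a family of capsid-binding proteins, had 995.7 and 792.5 against 125.6 and 133.7 (-2.64, SE 0.44, adjusted p = 0.00205). Apobec3, a cytidine deaminase that limits retroviruses, had 555.8 and 692.1 against 307.3 and 292.0 (-1.01, SE 0.19, adjusted p = 0.00481), and lost its call without B6 replicate 2 or C3 replicate 2 (highest adjusted p = 0.0984). Restriction factors thus held 2 lower genes of 10 tested. The wider type I interferon response held 0 called genes of 26 by limma, with 1 at an unadjusted p below 0.05, a median of -0.09 and 5 members above 0.

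Receptors and their pathways held few called genes. Wdfy1, an endosomal adaptor of Toll-like receptors, had 146.6 and 155.2 in B6 and 426.8 and 406.2 in C3 (1.37, SE 0.27, adjusted p = 0.00886), but passed in none of the fits without 1 array (highest adjusted p = 0.0861). Its other probe set did not pass (0.69, adjusted p = 0.0683). Wdfy1 was the only one of 24 genes of Toll-like receptor signalling that passed. Tlr4 had 274.8 and 208.5 against 201.3 and 226.1 (-0.16, adjusted p = 0.951), with overlapping arrays. Clec4n, the C-type lectin Dectin-2 that binds fungal mannans, had 231.4 and 345.7 against 557.3 and 606.4 (1.00, SE 0.22, adjusted p = 0.0229), and lost its call without B6 replicate 1 or either C3 array (highest adjusted p = 0.395). Irf8, a transcription factor of macrophages and dendritic cells, had 606.4 and 560.3 against 781.4 and 789.7 (0.42, adjusted p = 0.559). Class II presentation (13 genes, median 0.12), complement (18, median -0.06) and cytokine receptors (27, median 0.01) held 0 called genes by limma, with 1, 2 and 2 at an unadjusted p below 0.05.

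Alveolar macrophages clear surfactant and inhaled particles. Krt79, a keratin that mouse alveolar macrophages express, had 486.3 and 503.1 in B6 and 1723 and 1557 in C3 (1.70, SE 0.14, adjusted p = 2.44e-07). The chemokine Ccl6 had 1393 and 1663 against 2818 and 3311 (1.00, SE 0.21, adjusted p = 0.0166), and kept its call only without C3 replicate 1 (highest adjusted p = 0.225). Mcoln3, a lysosomal cation channel, went the other way with 228.2 and 174.8 against 74.1 and 98.3 (-1.09, SE 0.23, adjusted p = 0.0155), losing its call without B6 replicate 1 or C3 replicate 1 (highest adjusted p = 0.241). On the other probe set of Mcoln3 the arrays overlapped (-0.07, adjusted p = 0.991). That of Ccl6 did not pass (0.86, adjusted p = 0.0908). The list of 11 tested genes thus held 2 higher and 1 lower, 8 at an unadjusted p below 0.05 and a median of 0.41. Its mean log2 was 9.84 and 9.90 in B6 and 10.16 and 10.34 in C3, and its summed signal 14434 and 16035 against 17769 and 19087, so the arrays did not overlap. The abundant member Chil3, a secreted chitinase-like protein, had 3340 and 4250 against 2464 and 3460 (-0.37, adjusted p = 0.688), and Car4, a carbonic anhydrase that lung capillaries also make, 2271 and 2329 against 3270 and 2874 (0.41, adjusted p = 0.128). Gpnmb, a glycoprotein of lysosomes in macrophages, was higher with 133.4 and 170.1 against 738.4 and 495.1 (1.90, SE 0.24, adjusted p = 8.14e-05), 1 of 40 lysosomal genes called.

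The B and plasma cell list held 1 called gene of 15 by limma, with 2 at an unadjusted p below 0.05. Its median was -0.14 and 5 members lay above 0, so most of the list did not lean towards C3. Jchain was its called member, and Igkv8-30 was in none of the lists. Jchain, which joins polymeric antibodies, had 393.2 and 59.9 in B6 and 710.7 and 1326 in C3 (2.49, SE 0.58, adjusted p = 0.0317), and Igkv8-30, a kappa light chain segment, 726.4 and 392.1 against 1291 and 1405 (1.31, SE 0.32, adjusted p = 0.0429). Each kept its call only without B6 replicate 1 (highest adjusted p = 0.493 and 0.484), and B6 replicate 2 was the low array in both. The heavy chain Ighm was also low on that array, with 1949 and 565 against 4082 and 5718 (2.18, adjusted p = 0.151). Of 8 platelet genes 0 passed by limma, 1 had an unadjusted p below 0.05, and all had differences of 0 or lower (median -0.33). The platelet chemokine Ppbp had 982 and 1398 against 351 and 360 (-1.68, adjusted p = 0.0778). Krt19, a keratin of simple epithelium and mesothelium, was higher with 1364 and 1699 against 2613 and 3498 (0.98, SE 0.16, adjusted p = 0.00134), the only one of 6 mesothelial genes called. Without C3 replicate 2, the array high in that list, it stood at 0.77 and still passed (adjusted p = 0.0438).

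The slow and cardiac myosin Myh7 had 219.2 and 294.9 in B6 and 738.2 and 840.6 in C3 (1.57, SE 0.25, adjusted p = 0.00135). Ankrd1, a stretch-induced cofactor of the heart, had 613.4 and 552.3 against 1383 and 1381 (1.22, SE 0.26, adjusted p = 0.0170), passed in none of the fits without 1 array (highest adjusted p = 0.161) and lost its call with the muscle covariate. The cardiac list held these 2 of 19 genes, with means of 9.49 and 9.31 against 9.78 and 9.59. Of 18 skeletal muscle genes 0 passed by limma and 3 had an unadjusted p below 0.05, and skeletal actin Acta1 had 6363 and 6469 in B6 but 170 and 5900 in C3 (-2.62, adjusted p = 0.838). The squamous keratin Krt4 had 6185 and 2773 against 22.6 and 570.8 (-4.79, adjusted p = 0.454); of its list of 5, 0 passed by limma and 3 had an unadjusted p below 0.05. Myh7 kept its call with the muscle covariate.

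The clock list gave the largest count. In the molecular clock, ARNTL (BMAL1) and CLOCK drive E-box genes, among them the repressors Nr1d1 and Nr1d2 (REV-ERB alpha and beta) and Bhlhe40 (DEC1), which feed back on the clock, and the output factor Dbp, which acts through D-boxes. Nr1d2 had 520.0 and 604.6 in B6 and 1820 and 1492 in C3 (1.53, SE 0.17, adjusted p = 2.25e-05), and its second probe set was also higher (1.32, adjusted p = 0.0393). Bhlhe40 had 400.2 and 297.6 against 670.5 and 868.2 (1.11, SE 0.18, adjusted p = 0.00169). Both passed without any one array, although Bhlhe40 reached an adjusted p of 0.0498. Nr1d1 had 240.5 and 404.0 against 1369 and 778.6 (1.68, SE 0.35, adjusted p = 0.0143), and lost its call without B6 replicate 1 or C3 replicate 1 (highest adjusted p = 0.266). Dbp had 196.3 and 142.0 against 402.5 and 353.0 (1.10, SE 0.22, adjusted p = 0.0107), and lost its call without B6 replicate 2 or either C3 array (highest adjusted p = 0.190), while its second probe set gave 1.87 (adjusted p = 0.0012).

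The 19 clock genes tested had 4 higher, 0 lower, 9 at an unadjusted p below 0.05 and a median of 0.10. Tef, a partner of Dbp, had 1555 and 1500 against 2230 and 2138 (0.51, adjusted p = 0.147), and the kinase Csnk1e 748.7 and 755.7 against 1362 and 989.2 (0.62, adjusted p = 0.0741). Arntl and Per1, chosen after their values were seen, lay the other way: Arntl had 568.0 and 591.6 against 300.0 and 366.1 (-0.78, adjusted p = 0.380), and Per1 911.4 and 711.4 against 736.9 and 273.8 (-0.81, adjusted p = 0.448). Dbp had a strain signal of 567 to 2220 in the 9 RI strains, above both progenitors in all 9, and 173 in F1. Nr1d2 had 1965 to 3372 in the RI strains, also above both progenitors in all 9, and 817 in F1. Arntl ran the opposite way, with 83.1 to 302 in the RI strains. The strain mean of F1 lay between those of the progenitors for all 3 genes, at 423 for Arntl, and those of the RI strains lay past C3. The labels give no hour at which lungs were taken.

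**Figure D4:**
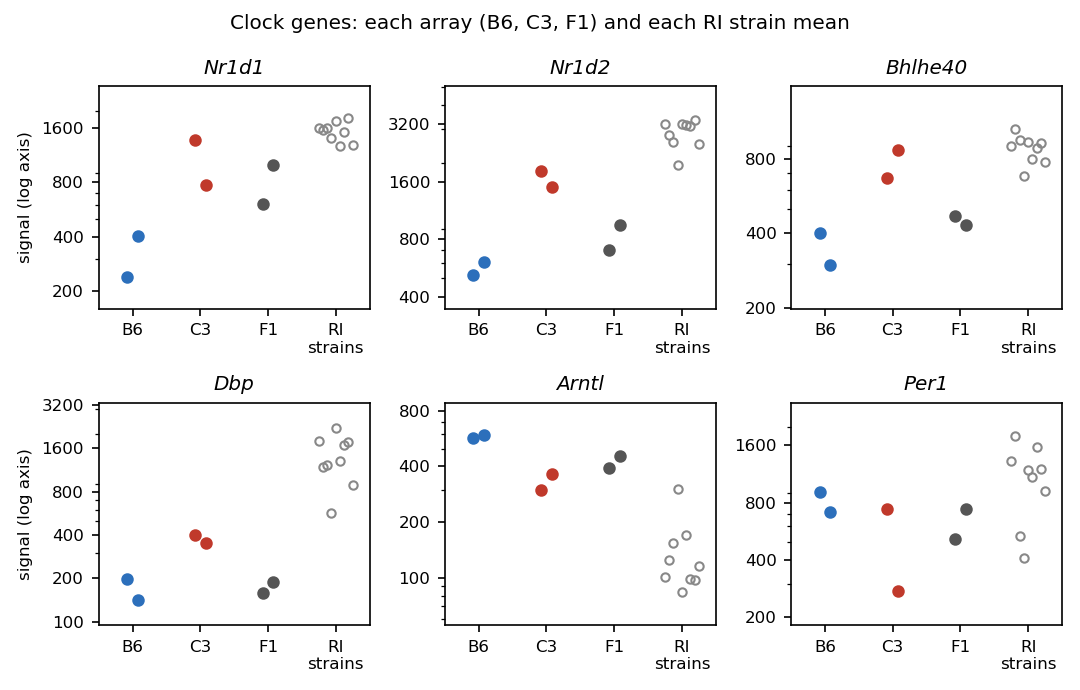
Signal (log axis) of 6 clock genes on each B6, C3 and F1 array (filled points) and as the mean of each of 9 RI strains (open points). Nr1d1, Nr1d2, Bhlhe40 and Dbp are higher on both C3 arrays than on both B6 arrays, and the RI strains lie from 567 to 2220 for Dbp and from 83.1 to 302 for Arntl, past C3 in both.

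The promoters of both REV-ERB genes are shown for the letters through which clock factors act, with RefSeq sequence of GRCm38.p6 and capitals on the match. Nr1d1 lies on the minus strand at chr11:98775328-98775627 and has an E-prime box (CACGTT, here on the opposite strand) beginning 28 bases before the start. Nr1d2 lies on the minus strand at chr14:18239057-18239356 and has the nuclear receptor letters AGGTCA beginning 77 bases before it.
Nr1d1: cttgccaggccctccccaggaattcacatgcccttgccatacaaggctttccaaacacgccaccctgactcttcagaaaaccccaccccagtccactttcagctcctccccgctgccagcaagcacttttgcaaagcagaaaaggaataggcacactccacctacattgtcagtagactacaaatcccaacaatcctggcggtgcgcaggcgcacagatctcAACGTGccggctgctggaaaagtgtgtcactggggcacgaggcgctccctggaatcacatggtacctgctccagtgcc
Nr1d2: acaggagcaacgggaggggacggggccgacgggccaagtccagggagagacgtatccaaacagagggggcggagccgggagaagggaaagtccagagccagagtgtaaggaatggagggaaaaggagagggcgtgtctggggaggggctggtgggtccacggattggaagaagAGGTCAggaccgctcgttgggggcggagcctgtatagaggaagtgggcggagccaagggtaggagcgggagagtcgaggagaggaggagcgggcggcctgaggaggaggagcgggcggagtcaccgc
Searched on both strands, CACGTT is in 4.68% and AGGTCA in 16.3% of the 32851 promoters, and the letters of the full E-box CACGTG (7.15%) and the D-box TTANGTAA (2.32%) are in neither of these 2 windows. Over the promoters of called genes the shares were 4.88% for CACGTT and 14.6% for AGGTCA, against 5.07% and 12.5% for all genes tested.

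Single genes of haem and redox metabolism were higher in C3. Alad, the second enzyme of haem synthesis, had 337.0 and 399.3 in B6 and 1370 and 1630 in C3 (1.98, SE 0.16, adjusted p = 2.57e-07). Hebp1, a haem-binding protein, had 120.7 and 167.9 against 619.6 and 499.1 (1.85, SE 0.34, adjusted p = 0.00457), and lost its call without B6 replicate 1 or C3 replicate 1 (highest adjusted p = 0.0825). They were 2 of 17 haem genes; Alas1, which starts the pathway, stood at 0.21 (adjusted p = 0.907) and Fech, which inserts iron, at 0.22 (adjusted p = 0.830). Nnt, the mitochondrial transhydrogenase that makes NADPH, had 531.4 and 464.4 against 1005 and 941.0 (0.95, SE 0.14, adjusted p = 0.000677), and its second probe set gave 0.87 (adjusted p = 0.0344). Its RI strain signals, from 904 to 1268, lay nearer C3 in 9 of 9 strains. Glo1, which removes methylglyoxal, was higher on all 3 of its probe sets (1.15, 1.32 and 1.45), with 1079 and 1413 against 2741 and 2789 on the brightest (SE 0.14, adjusted p = 7.72e-05). The extracellular superoxide dismutase Sod3 had 3359 and 3853 against 4085 and 3327 (0.04, adjusted p = 0.993). The 36 genes of NRF2 and glutathione detoxification held 0 calls by limma, 2 at an unadjusted p below 0.05 and a median of -0.02.

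Of 20 genes of purine breakdown and 9 of the vitamin K cycle 1 each was lower, and of 30 genes of aldehyde, ketone and alcohol metabolism Glo1 was higher and 2 were lower. Ggcx, the carboxylase that uses vitamin K to activate clotting and matrix proteins, had 465.9 and 553.6 in B6 and 128.3 and 137.3 in C3 (-1.82, SE 0.18, adjusted p = 4.95e-06). Its substrate Mgp, a calcification inhibitor, did not pass (-0.18, adjusted p = 0.919). Xdh, which makes uric acid, had 931.8 and 1138 against 406.8 and 176.9 (-1.87, SE 0.31, adjusted p = 0.00205), and lost its call without C3 replicate 2 (adjusted p = 0.0564). Sc5d, a late desaturase of cholesterol synthesis, had 695.3 and 753.1 against 311.5 and 295.2 (-1.21, SE 0.16, adjusted p = 0.000179). Its other probe set did not pass (-0.62, adjusted p = 0.603). In the opposite direction, Ch25h, which makes 25-hydroxycholesterol, had 210.5 and 234.5 against 406.2 and 554.7 (1.04, SE 0.21, adjusted p = 0.00886), losing its call without B6 replicate 1 or C3 replicate 2 (highest adjusted p = 0.168). They were the only 2 called of 23 sterol genes, one in each direction. Akr1e1, an aldo-keto reductase, had 581.9 and 487.0 against 137.4 and 254.2 (-1.43, SE 0.23, adjusted p = 0.00169). The alcohol dehydrogenase Adh1 had 2822 and 2585 against 1980 and 1436 (-0.67, SE 0.15, adjusted p = 0.0239), and kept its call only without C3 replicate 1 (highest adjusted p = 0.368), while the retinal dehydrogenase Aldh1a1 stood at -0.26 (adjusted p = 0.723).

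Amino acid carriers held 1 lower gene of 16, and amino acid breakdown 1 higher of 26. Slc1a5, the glutamine and neutral amino acid carrier, had 1024 and 1006 in B6 and 545.1 and 398.4 in C3 (-1.10, SE 0.15, adjusted p = 0.000244). Pink1, the kinase that marks damaged mitochondria for removal, had 1722 and 1501 against 731.1 and 566.2 (-1.30, SE 0.19, adjusted p = 0.000677), the only one of 25 genes of mitochondrial quality control called. Immp1l, a peptidase of the inner mitochondrial membrane, named after its values were seen, had 988.4 and 999.7 against 540.7 and 455.3 (-0.98, SE 0.15, adjusted p = 0.000677). Bcat2, which starts the breakdown of branched-chain amino acids in mitochondria, was higher with 241.8 and 203.1 against 490.6 and 443.1 (1.02, SE 0.22, adjusted p = 0.0170), and Acaa1b, a peroxisomal thiolase, with 165.2 and 156.2 against 406.5 and 236.5 (0.89, SE 0.22, adjusted p = 0.0492). Bcat2 passed in none of the fits without 1 array (highest adjusted p = 0.199), and Acaa1b only without C3 replicate 2 (highest adjusted p = 0.521). The 65 nuclear genes of oxidative phosphorylation held 0 calls by limma, 3 at an unadjusted p below 0.05 and a median of -0.04.

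An actin regulator had the largest increase by gene. Cap1, which recycles actin monomers, was higher by 3.37 on its brightest probe set and by 4.16 on the other, where B6 had 66.0 and 58.5 and C3 1675 and 1145 (adjusted p = 7.2e-09). Baiap2l1, an adaptor that bends membrane, was higher by 2.53 and 3.12 on its probe sets (adjusted p = 7.85e-09 and 2.39e-09). Lst1, a small leukocyte membrane protein, had 98.1 and 90.5 against 246.4 and 329.9 (1.45, SE 0.31, adjusted p = 0.0159) and kept its call only without C3 replicate 1 (highest adjusted p = 0.195). The lower member Arap3, an activator of Arf GTPase hydrolysis, had 1435 and 1535 against 745.7 and 478.0 (-1.29, SE 0.21, adjusted p = 0.00173); it lost its call without C3 replicate 2 (adjusted p = 0.0542), and its other probe set stood at 0.28 (adjusted p = 0.908). These were the 4 of 42 actin genes that passed, and the list median was -0.01.

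The cilia list held 3 called genes of 12 tested, 1 higher and 2 lower, with a median of -0.10. Nme7, a part of the gamma-tubulin ring complex, had 247.8 and 269.6 in B6 and 1068 and 959.5 in C3 (1.91, SE 0.18, adjusted p = 1.43e-06). Rpgrip1, which anchors the GTPase regulator RPGR in photoreceptor cilia, fell to 42.2 and 83.5 from 1547 and 1392 (-4.29, SE 0.32, adjusted p = 7.3e-08). Reep6, which shapes endoplasmic reticulum in photoreceptors, had 270.0 and 271.1 against 130.7 and 100.9 (-1.13, SE 0.19, adjusted p = 0.0027) and lost its call without C3 replicate 2 (adjusted p = 0.0616). The markers of ciliated cells tested, 3 in number, held 0 calls by limma, 0 at an unadjusted p below 0.05 and a median of -0.08. Golgi and secretory traffic held 1 called gene of 36: Tmem87a, a Golgi membrane protein, was higher by 2.76 (adjusted p = 3.75e-07), with 124.0 and 115.5 against 932.3 and 870.0. Rab6b, a small GTPase of retrograde Golgi traffic, had 337.7 and 363.9 against 128.0 and 132.1 (-1.33, SE 0.20, adjusted p = 0.000659). Kif5b, the kinesin heavy chain of most cells, named after its values were seen, had 1975 and 2387 against 1184 and 1014 (-0.98, SE 0.14, adjusted p = 0.000659), while its other 4 probe sets stood between -0.65 and 0.10 and did not pass.

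Growth factor and receptor genes included both directions. Hbegf, a ligand of the EGF receptor and an immediate early gene, had 730.1 and 741.3 in B6 and 1569 and 1426 in C3 (1.01, SE 0.17, adjusted p = 0.0021), and was 1 of 11 EGF family genes called. The other probe set of Hbegf did not pass (0.35, adjusted p = 0.59). Of 28 immediate early genes Hbegf and Ankrd1 passed, and Jund, which had 2487 and 2290 against 5434 and 3642, did not (0.89, adjusted p = 0.230). Gabbr1, a subunit of the GABA B receptor, had 462.7 and 518.2 against 1235 and 1270 (1.33, SE 0.22, adjusted p = 0.00205). The other probe set of Gabbr1 did not pass (0.57, adjusted p = 0.0722). Grin2c, a subunit of NMDA glutamate receptors, was higher by 1.84 (adjusted p = 0.0347), and Cftr, the chloride channel of airway epithelium, by 1.06 with 170.9 and 178.1 against 387.9 and 374.4 (adjusted p = 0.0130). Neither Grin2c nor Cftr passed when any one array was left out (highest adjusted p = 0.257 and 0.119). Rcan2, an inhibitor of calcineurin, had 447.7 and 452.8 against 1105 and 968.2 (1.17, SE 0.16, adjusted p = 0.000244). Adgrl4, an adhesion receptor of endothelium, named after its values were seen, had 1358 and 1315 against 806.5 and 706.9 (-0.81, SE 0.14, adjusted p = 0.00205). A second probe set of Adgrl4 did not pass (-0.26, adjusted p = 0.756). The 15 endothelial markers held 0 calls by limma, 1 at an unadjusted p below 0.05 and a median of 0.06.

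The matrix list held 2 lower genes of 50. Tnxb, tenascin X, which organises collagen, had 520.5 and 529.9 in B6 and 204.9 and 136.8 in C3 (-1.56, SE 0.32, adjusted p = 0.0127), and Mfap5, a glycoprotein of elastic microfibrils, 2125 and 2109 against 1465 and 884.0 (-0.89, SE 0.20, adjusted p = 0.0247). Each kept its call only without C3 replicate 1 (highest adjusted p = 0.183 and 0.399). In this list 8 genes had an unadjusted p below 0.05 and the median was -0.07. Sspn, sarcospan, of the dystrophin complex that ties muscle and other cells to the matrix, had 660.1 and 586.2 against 169.8 and 196.5 (-1.68, SE 0.16, adjusted p = 1.9e-06). Utrn, the dystrophin relative that lung expresses, did not pass (0.19, adjusted p = 0.864), and Sspn was the only one of 11 genes of the complex called. The alveolar type 2, type 1 and club cell lists held 0 calls by limma, with 1, 1 and 0 genes at an unadjusted p below 0.05.

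Further genes of high rank were in none of the lists. Srrm2, a scaffold of the spliceosome, had 534.7 and 766.0 in B6 and 2167 and 1606 in C3 (1.52, SE 0.16, adjusted p = 7e-06). Wdr82, of the histone methylase complex at promoters, had 848.8 and 743.7 against 358.1 and 351.4 (-1.13, SE 0.14, adjusted p = 7.33e-05), and Exosc9, a subunit of the RNA exosome, 303.4 and 310.1 against 118.2 and 149.7 (-1.11, SE 0.18, adjusted p = 0.00205). Phf5a, a splicing factor, stood at -1.06 (adjusted p = 0.00195) and lost its call without C3 replicate 2 (adjusted p = 0.0538). Pttg1, securin, which restrains chromosome separation, had 4957 and 4641 against 1062 and 2514 (-1.54, SE 0.28, adjusted p = 0.00419), and lost its call without B6 replicate 1 or C3 replicate 1 (highest adjusted p = 0.0696). Ppp1r21, an endosomal RNA-binding protein, was higher with 855.9 and 934.8 against 2754 and 2619 (1.57, SE 0.14, adjusted p = 1.43e-06). The 31 cell cycle genes held 0 calls by limma, 2 at an unadjusted p below 0.05 and a median of -0.09.

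A Y-linked gene was also among the highest ranks. Eif2s3y, the Y copy of an initiation factor subunit, had 322.4 and 340.0 in B6 and 933.7 and 902.0 in C3 (1.43, SE 0.16, adjusted p = 3.11e-05). F1 had 766.9 and 936.6, at the level of C3, while the 9 RI strains had 295 to 533 and lay nearer B6 in every case. Uty, another Y-linked gene, named after its values were seen, had 253.8 and 240.1 against 443.7 and 432.3 (0.79, SE 0.18, adjusted p = 0.0284). It passed in none of the fits without 1 array, and its second probe set did not pass (0.52, adjusted p = 0.292). For Uty, F1 had 310.0 and 366.3, between the progenitors, and the RI strains had 214 to 325.

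Called genes that directly neighbour each other among the tested genes made 6 runs of 2, of which 4 ran in one direction. The angiogenic ribonuclease Ang (-1.12, adjusted p = 0.0163) and Rnase4 (-0.46, adjusted p = 0.0491), which share promoters, were both lower, with Rnase4 at 5030 and 5809 in B6 and 4211 and 3642 in C3. Ang kept its call only without C3 replicate 1 and Rnase4 in none of the 4 fits (highest adjusted p = 0.215 and 0.440). Lin7c, a polarity protein, and Fibin (-0.83) were lower, as were Vamp8, a fusion protein of secretory granules (-0.58), and Ggcx. Fgfr4 (0.79), a fibroblast growth factor receptor, and Zfp346 (0.69) were higher. Other probe sets of both did not pass, at 0.32 and 0.15 for Fgfr4 and 0.26 for Zfp346. The other runs joined opposite directions, Rpgrip1 with the histone chaperone subunit Supt16 (0.81) and Gabbr1 with H2-M3. Without B6 replicate 1, Supt16 and Vamp8 lost their calls, as they did without C3 replicate 2 (highest adjusted p = 0.133 and 0.191), Vamp8 also without B6 replicate 2, and Fibin, Fgfr4 and Zfp346 passed in none of these fits (up to 0.273).

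Probe sets of one gene gave a second reading of 52 called genes. In 41 of them every other tested probe set had the same sign. That count includes differences near 0, such as -0.0004 for Vps37c and 0.01 for Fblim1. The share of same signs over all genes tested was not computed. In only 17 of the 52 did another probe set pass the same way. Lin7c was one, lower on all 4 (-0.76, -3.73, -2.18 and -1.54), although its brightest lost its call without B6 replicate 2 or C3 replicate 2. In 2, H2-D1 and Pdxdc1, another passed in the opposite direction. The brightest probe set of Pdxdc1 had 848.6 and 1021 in B6 and 96.9 and 145.6 in C3 (-2.81) but 107.0 and 96.3 against 1347 and 1542 on another (3.63), and 9 of 9 RI strains fell on the same side by both. Its direction therefore cannot be told. In 7 called genes no other probe set shared the sign, among them Srd5a3, a polyprenol reductase (1.82 on the called probe set and between -0.29 and -0.02 on its other 3). Slc25a51 was another, at -0.68 on the called probe set and 0.41 on its other (adjusted p = 0.159).

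The reverse also occurred: 46 of the 2877 genes with more than 1 tested probe set passed only on one that was not their brightest. Of all probe sets tested, 1.67% passed. The 46 genes passed on 49 such probe sets, and for 20 of these the brightest one lay within 0.2 of 0. The following were chosen after their values were seen. One probe set of Rps9, a ribosomal protein, had 2456 and 2171 in B6 and 204.3 and 238.0 in C3 (-3.30, SE 0.22, adjusted p = 1.24e-08) but the brightest gave -0.10. Prdx2, a peroxidase, gave -2.13 and -0.05, and the proteasome subunit Psmd6 -2.45 and -0.04. Hsd17b11, a lipid droplet dehydrogenase, had 85.0 and 63.2 against 790.2 and 572.7 (2.95, SE 0.24, adjusted p = 3.01e-07) where its brightest gave 0.13. In each of these the difference belonged to one probe set and was not seen on the brighter one, so a change of the whole gene cannot be read from it.

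**Figure D5:**
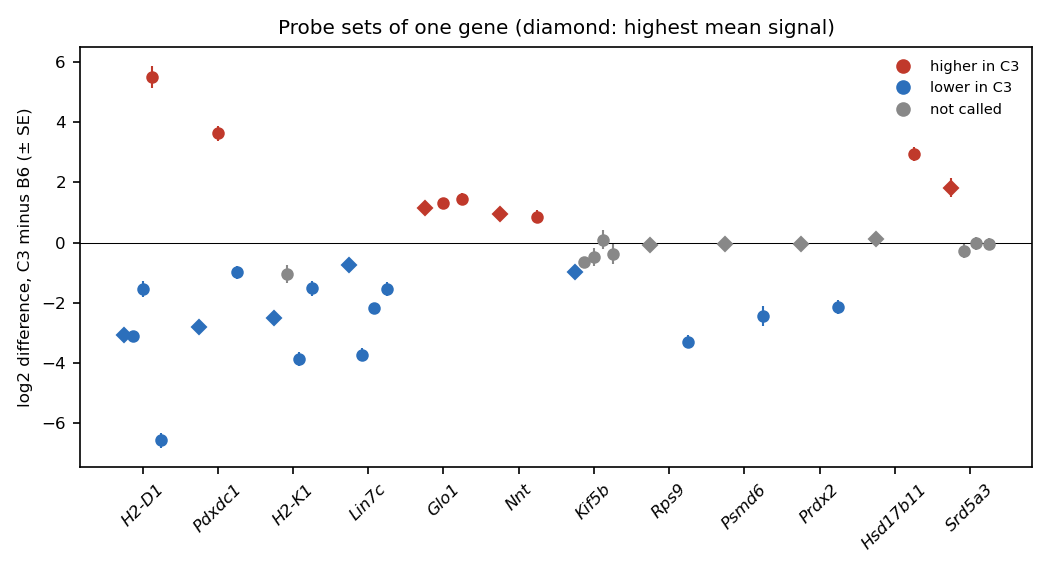
Log2 difference of C3 minus B6 with its SE (limma) for each tested probe set of 12 genes, with the brightest probe set of each gene as a diamond and calls in red (higher) or blue (lower). H2-D1 and Pdxdc1 have called probe sets on both sides of 0, Glo1 and Lin7c on one side only, and the diamonds of Rps9, Psmd6, Prdx2 and Hsd17b11 lie near 0.

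The F1 mean lay between B6 and C3 for 129 of 135 called genes (95.6%), against 32.0% of all genes tested; the B6 and C3 arrays that chose these genes also set the ends of the scale. Of the RI strains a median of 4 of 9 were nearer C3, and 118 of the 135 called genes divided the strains. The RI counts here were not made over all genes tested. They therefore have no background and do not set the called genes apart from others. For 8 genes all 9 RI strains were nearer C3, the 4 clock genes, Jchain, Wdfy1, Nnt and Zfp346, and for 9 none was, among them Eif2s3y, Uty, Hbegf, Slc1a5 and Ppp1r21. Slc1a5 had 778 to 1493 and Hbegf 372 to 832 in the RI strains, while Ppp1r21 had 855 to 1159, near the B6 level.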

How the data were processed

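Lung RNA of 12 strains, 2 arrays each, was measured on Affymetrix Mouse 430A arrays. The authors' deposited table holds 1 intensity for each probe set on each array, on a linear scale; per the labels, RNA was extracted with Trizol and labelled with biotin. Sources used here name neither the software nor the scaling. Array medians ran from 239.0 to 269.6, trimmed means were nearly equal, and the values were used without further normalization, as log2(signal + 16), where differences of dim genes are understated. Probe sets were named by the platform annotation: 20380 had 1 symbol, 691 several, 1555 none, and 64 were controls; 20351 were found in RefSeq of GRCm38.p6, used for gene order and promoters. No pair of arrays held identical values.

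A linear model with 12 strain groups was fitted (limma 3.58.1, R 4.3.3; lmFit, eBayes with trend; 12 residual and 5.95 prior degrees of freedom), with Benjamini-Hochberg adjustment over 12499 probe sets, and tested on simulated data. Adjusted p-values and SEs are limma's. Replicate numbers do not come from shared animals. The members and gene lists were chosen with earlier results of these data known. Named were most genes ranked 11 to 30 in each direction. Left out of those ranks were Gnb1, Rad51ap1, Lsm12, Tmem71, Lrrc1, Copz2, Erdr1, Kazald1 and Rps6. The first 10 were named where a list or probe set comparison turned on them. Also named were called members of each list described (up to 6), up to 3 bright uncalled ones, and called neighbours. To these were added Nnt, Glo1, Tlr4, Irf8, Sod3 and H2-Ea, the last of which had no tested probe set. Others are said to be chosen later. Alternatives were 2 normalizations, offsets, filters, 1 probe set per gene, no trend, robust fitting, a replicate block, fewer arrays, a muscle covariate and leaving out each array. The number of arrays limits the precision.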

Additional observations from a re-analysis of the deposited data

How the results depend on the processing

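The main counts were 96 probe sets and 61 genes higher and 113 probe sets and 74 genes lower. They fell most with fewer arrays, where fewer degrees of freedom remain: with only the 4 B6 and C3 arrays to 45 and 51 probe sets (29 and 29 genes) higher and lower, and with 6 arrays (F1 added) to 55 and 58 (35 and 35 genes). With the top 40 percent of probe sets, where fewer are tested, 62 probe sets and 39 genes were higher. With 1 probe set per gene, 62 genes were higher and 76 lower, beside 61 and 74 in the main fit. Leaving out 1 array gave 51 to 66 probe sets higher and 61 to 96 lower, and 32 to 45 genes higher and 35 to 59 lower. Under both normalizations, other offsets, no filter, no trend, robust fitting and the muscle covariate all 4 counts stayed within 1.5 times; with the covariate they were 69 and 99 probe sets. With the replicate number as a block, 91 probe sets were higher and 108 lower (57 and 71 genes), and 123 of the 135 called genes passed. The deviations of B6 replicate 1 and C3 replicate 1 from their strain means correlated at -0.22. With 2 arrays a strain the sign turns when the C3 numbers are swapped. This value therefore cannot tell whether the numbers mark a pairing. With the C3 numbers crossed, a pairing added after seeing the data, 96 probe sets were higher and 116 lower. Among genes that did not pass, Acta1 turned from -2.62 to 0.69 with the covariate, Sod3 from 0.04 to -0.08 with it and to between -0.113 and 0.183 without 1 array, and Tlr4 from -0.16 to between -0.342 and 0.031 without 1 array; the cause was not tested. Of the genes described, the covariate ended the calls of Jchain, Grin2c, Lst1, Igkv8-30, Ankrd1, Bcat2, Acaa1b, Fgfr4, Uty, Zfp346, Mcoln3, Fibin and Rnase4, median centring those of Adh1 and Rnase4, and no filter, another offset, quantile normalization, robust fitting or no trend ended, in 1 or more cases, those of Jchain, Grin2c, Igkv8-30, Acaa1b and Rnase4. Of 1314 list medians recomputed, 71 moved by more than 1 SD.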
